A study of Homo sapiens with 24 samples.

Results

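The genes described here are 42 genes of the kinetochore, the spindle checkpoint and the factors that work beside them at centromeres, out of 57820 genes counted. They were chosen by name and role, with earlier results of these data known. All 42 had enough reads to be tested in every comparison. RNA was sequenced from 24 libraries of U2OS cells, a human osteosarcoma line, in 8 groups of 3 biological replicates. The first 12 libraries came from AID-DIvA cells, WT and ID3-KO. AID-DIvA is a U2OS derivative with an inducible restriction enzyme that cuts at known sites and can be degraded with auxin. These cells were left untreated, or were given mocetinostat, a class I histone deacetylase (HDAC) inhibitor, for 24 h and then fresh medium for 24 h. In the other 12 libraries WT and ID3-KO U2OS cells were left untreated or were given mocetinostat for 24 h, and are taken here as collected before recovery, which no label states. The library names of the U2OS samples also carry the word DivA, so how far apart the lines are is not known, and the recovery stage and the cell line cannot be told apart. In the labels of the AID-DIvA samples, the field for treatment says the reverse of the title. The titles were followed, since the library names and the study's own list of samples carry the same wording, and every AID-DIvA treatment difference would change sign if the field were right. How the ID3-KO line was made, whether it is 1 clone, and the mocetinostat dose for these libraries are not given in the sources used here.

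The kinetochore is the protein assembly that joins each chromosome to spindle microtubules. It is built from the inside outwards, from nucleosomes with the histone variant CENPA, through the constitutive centromere network (CENPH to CENPW), to the MIS12, KNL1 and NDC80 complexes that hold the microtubule. Unattached kinetochores recruit the checkpoint proteins BUB1, BUB1B, BUB3, MAD1L1 and MAD2L1 and the kinase TTK, which hold back anaphase. Many of these genes are known to be transcribed mainly in G2 and M phase, often through CHR elements (cell cycle genes homology regions, TTTGAA) and CCAAT boxes near the start of transcription.

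RefSeq promoter windows (GRCh38.p14, 250 bases before to 50 after the start, 1 window a gene) matched 33 of the 42 genes. TTTGAA occurred on either strand in 15 of the 33 windows (45.5%), against 15.4% of 27305 windows of all genes. CCAAT occurred in 19 (57.6%, against 35.7%), and the CHR variant TTCGAA, added to the search after these windows had been read, in 4 (12.1%, against 1.45%). TTTNNCGC, an E2F-like motif in which N is any base, occurred in 5 (15.2%, against 6.9%). Matches are a description of the letters and not of binding. The 6 sequences shown next were picked because the results turn on these genes. CENPA, NDC80 and CDCA8 fell in all 4 treatment comparisons, SPC24 fell most before recovery, and SGOL2 and CENPE fell after recovery but not before it. Each runs 5′ to 3′ on the strand of the gene, from 130 bases before to 30 bases after the start, with matches to either CHR form or to the CCAAT box, on either strand, in capitals.
CENPA (chr2:26785926-26786085, + strand): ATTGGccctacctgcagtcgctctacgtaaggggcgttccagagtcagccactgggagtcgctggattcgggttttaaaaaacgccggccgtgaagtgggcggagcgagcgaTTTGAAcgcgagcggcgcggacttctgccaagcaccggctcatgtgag
NDC80 (chr18:2571427-2571586, + strand): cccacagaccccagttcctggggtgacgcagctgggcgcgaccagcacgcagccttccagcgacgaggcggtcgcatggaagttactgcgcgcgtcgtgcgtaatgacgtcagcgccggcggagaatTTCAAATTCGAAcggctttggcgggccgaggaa
CDCA8 (chr1:37692386-37692545, + strand): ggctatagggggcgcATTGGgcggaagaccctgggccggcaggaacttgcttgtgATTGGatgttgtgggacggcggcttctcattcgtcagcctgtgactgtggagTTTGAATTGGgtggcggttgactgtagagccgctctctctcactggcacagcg
SPC24 (chr19:11155753-11155912, - strand): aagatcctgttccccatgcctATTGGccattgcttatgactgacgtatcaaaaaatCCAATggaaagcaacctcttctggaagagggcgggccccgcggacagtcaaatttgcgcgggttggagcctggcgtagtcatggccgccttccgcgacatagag
SGOL2 (chr2:200526012-200526171, + strand): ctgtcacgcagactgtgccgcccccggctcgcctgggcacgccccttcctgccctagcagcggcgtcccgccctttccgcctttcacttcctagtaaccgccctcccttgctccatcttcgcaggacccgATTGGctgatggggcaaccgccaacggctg
CENPE (chr4:103198314-103198473, - strand): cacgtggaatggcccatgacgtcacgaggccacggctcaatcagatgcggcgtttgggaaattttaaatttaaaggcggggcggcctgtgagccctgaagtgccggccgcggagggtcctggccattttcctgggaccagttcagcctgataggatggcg
CENPA and CDCA8 carried TTTGAA shortly before the start together with inverted CCAAT boxes, and in CDCA8 the last CCAAT box overlaps the CHR element. In NDC80 an inverted TTTGAA and TTCGAA stood side by side at the start. SPC24 held CCAAT boxes and neither CHR form, SGOL2 held 1 inverted CCAAT box at the start, and CENPE held none of these motifs in the window.

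Total counts per library ran from 37878751 to 76906266, and the 42 genes together took 0.2762% to 0.4631% of them on average per group. Values per library are given as CPM, the counts of a gene scaled to the library total with TMM factors over all 24 libraries. The median coefficient of variation within a group was 4.55% over 336 combinations of gene and group. It was above 20% in 16 of them, 12 in recovered ID3-KO AID-DIvA cells (up to 33.1%, SGOL2) and 4 in untreated WT U2OS cells. The recovered ID3-KO replicate 1 differed more from the other two of its group (chi-square per gene of 20.08 and 26.92) than they did from each other (4.572). The untreated WT U2OS replicate 1 stood further apart (102.9 and 91.1, against 4.319 between the others). It also had a lower level of MKI67, a marker of proliferating cells (293 CPM, against 633 and 637). ID3 was lower in untreated ID3-KO than WT cells but not absent, at 34.8 ± 3.61 against 50.4 ± 2.2 CPM in AID-DIvA cells (mean ± SD, n = 3, edgeR adjusted p = 8.4e-06) and 30.6 ± 1.53 against 62.4 ± 15.9 CPM in U2OS cells (adjusted p = 0.0065). The 6 markers listed for osteoblast lineage and osteosarcoma cells were RUNX2, SPARC, COL1A1, COL1A2, ALPL and VIM. Of these VIM is not particular to osteoblasts. Of the 6, 4 were at 1 CPM or more in every library, and 5 leukocyte markers were all below 1 CPM. Of 4 epithelial markers EPCAM, KRT8 and KRT18 were at 1 CPM or more in every library. The 4 summed to 253 to 441 CPM, against 2220 to 4670 CPM for the 6 osteoblast markers, VIM included. Of 2 endothelial markers VWF was above 1 CPM in every library, and the sum was 1.6 to 11 CPM.

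After recovery most of the 42 genes were lower than in untreated cells, in both genotypes. In ID3-KO AID-DIvA cells 31 fell and none rose (edgeR quasi-likelihood test, adjusted p below 0.05 over all genes tested), with a median Log2FC of -0.56. Among all genes tested 19.9% fell and 20.2% rose, with a median of -0.02. In WT cells 29 fell and 1 rose, with a median of -0.40, against 23% and 23.9% of all genes. The same 29 genes fell in both genotypes, and CENPP and SPC24 were called in ID3-KO cells only. In CPM the 42 genes summed to 4730 ± 134 in untreated and 2940 ± 196 in treated ID3-KO cells, and to 4760 ± 53.3 and 3340 ± 57.5 in WT cells. In ID3-KO cells 9 genes fell beyond a Log2FC of -1, namely CENPA, NDC80, NUF2, CASC5, TTK, CENPE, CENPF, SGOL2 and CDCA8 (2.56% of all genes fell this far), and in WT cells SGOL2 alone did (2.52%). Without the recovered ID3-KO replicate 1, NDC80 (-0.87), NUF2 (-0.98) and TTK (-0.89) no longer fell this far. In these bulk samples fewer cells in G2 and M phase and less RNA per cell cannot be told apart. MKI67 fell as well (Log2FC -0.75 and -0.65), and CDKN1A, the cyclin-dependent kinase inhibitor p21, rose (0.94 and 1.21), and their part in these decreases was not tested.

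Before recovery most of the 42 genes were lower as well. In ID3-KO U2OS cells 30 of the 42 genes fell and 3 rose, against 34% and 35.8% of all genes, with a median of -0.31. In WT cells 26 fell and none rose, against 22.9% and 26%, with a median of -0.44. The genes summed to 3550 ± 12.4 and 2840 ± 58.1 CPM in untreated and treated ID3-KO cells, and to 3360 ± 58.5 and 2560 ± 18.4 CPM in WT cells. Of the 25 genes that fell in both genotypes, SPC24 and SKA2 fell beyond a Log2FC of -1 in WT cells (5.06% of all genes fell this far), and none did in ID3-KO cells (5.77%). Without the untreated WT replicate 1, 33 genes fell and 1 rose in WT cells (32.5% and 33.9% of all genes), and SPC24 and SKA2 were at -0.97 and -0.93, so that none fell beyond -1. The genes called only without it were CENPI, CASC5, TTK, MAD2L1, ZW10, CENPF and CENPJ, which fell, and CENPB, which rose. With library totals in place of TMM factors 26 fell and 5 rose in ID3-KO cells (29% and 40.4% of all genes), and 22 fell in WT cells (18.6%).

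In all 4 treatment comparisons 18 genes fell: CENPA, 5 members of the centromere network (CENPK, CENPL, CENPM, CENPN, CENPO), NDC80, NUF2, SPC25, ZWINT, SKA2, SKA3, BUB1B, BUB3, SGOL1, INCENP, BIRC5 and CDCA8. The share of all genes that fell in all 4, or in both genotypes at either stage, is not given here. The 4 genes CENPB, CENPW, NSL1 and CENPJ were called in none of them, though CENPB (0.09) and CENPJ (-0.17) were called in WT U2OS cells without the untreated replicate 1. CENPB binds a DNA motif in centromere repeats, and CENPJ is a centriole protein that shares only the family name. From each role the gene with the highest mean CPM, without regard to length, is given in every library, beside the genes that fell most. That order rests on the counts from either strand. Summed over all libraries, counts of the annotated strand put BIRC5 (338785) above INCENP (207408) and ZWILCH (147580) above KNTC1 (131753).

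**Figure D1:**
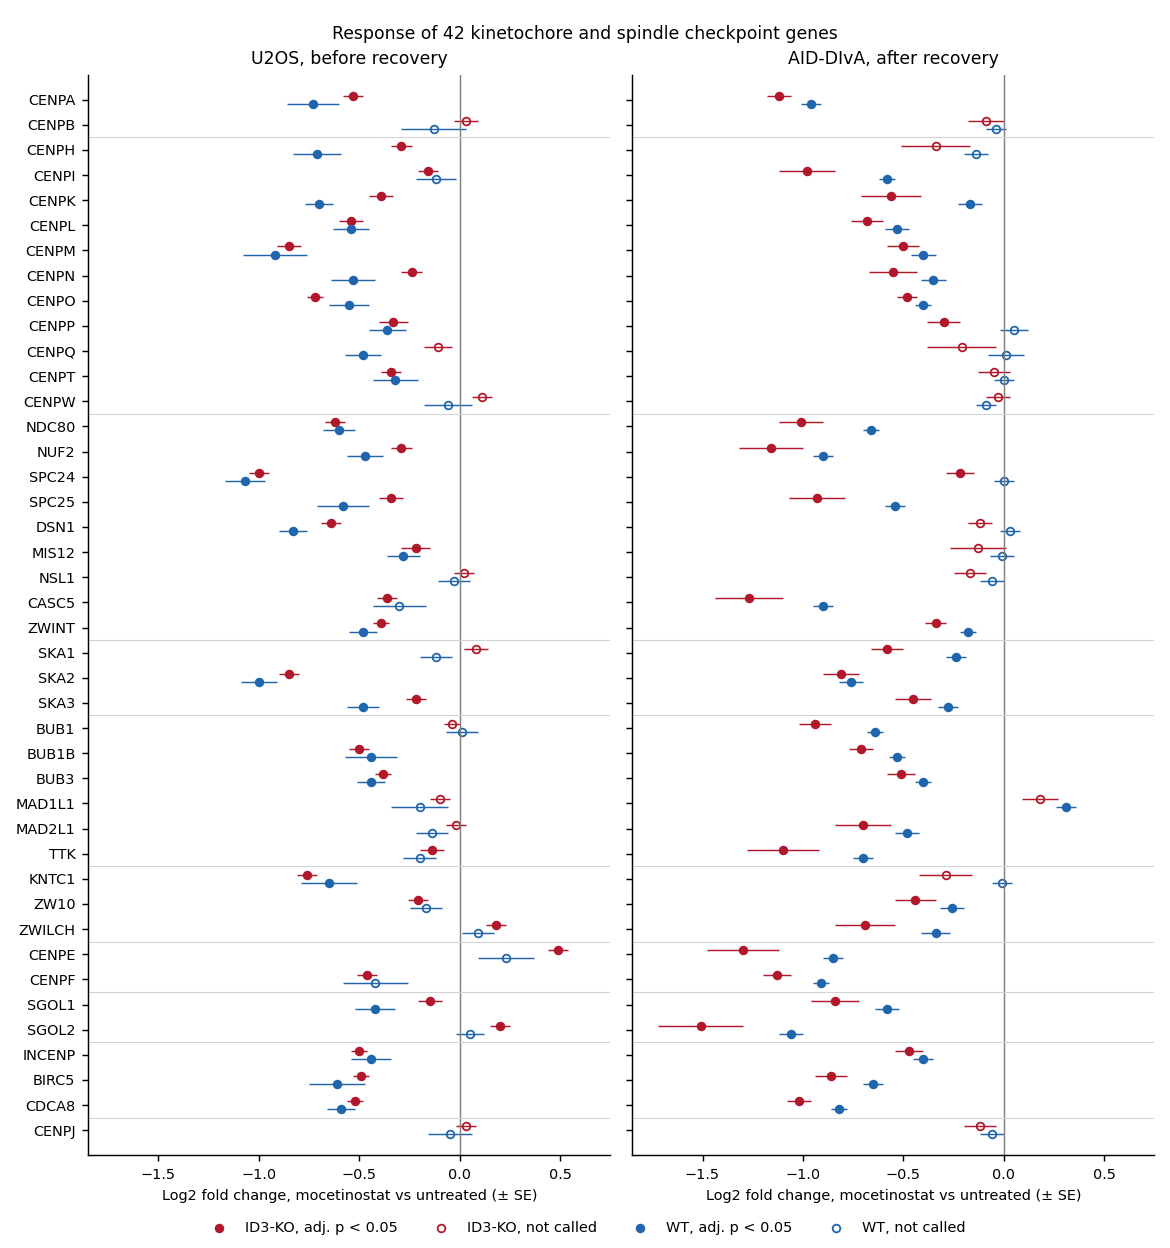
Log2 fold change (± SE) of mocetinostat-treated against untreated cells for each of the 42 genes, in rows by role, after recovery in AID-DIvA cells and before recovery in U2OS cells, with ID3-KO and WT cells drawn separately. After recovery nearly all points lie below 0 and the largest decrease is that of SGOL2 in ID3-KO cells (-1.51), and before recovery CENPE lies above 0 in both genotypes (0.49, and 0.23 in WT cells, where it was not called and was 0.08 without the untreated replicate 1).

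CENPA, the centromeric histone, had 89.0, 83.9 and 85.0 CPM in untreated and 41.5, 37.6 and 39.5 CPM in recovered ID3-KO AID-DIvA cells. In WT cells it had 96.5, 101 and 100.0 CPM untreated and 49.6, 53.2 and 49.6 CPM after recovery. Neither pair of groups overlapped, and the Log2FC was -1.12 ± 0.06 (SE, adjusted p = 1.1e-06) in ID3-KO and -0.96 ± 0.05 (adjusted p = 3.8e-09) in WT cells. Before recovery it fell by 0.53 and 0.73 on the log2 scale. Without the untreated WT U2OS replicate 1 the WT value was -0.58. CENPB had 102, 93.5 and 118 CPM untreated and 103, 95.4 and 95.8 CPM after recovery in ID3-KO cells. In WT cells CENPB had 93.2, 100.0 and 104 CPM untreated and 93.0, 99.4 and 94.4 CPM after recovery, so both pairs of groups overlapped. In U2OS cells the CENPB values ran from 91.7 to 115 CPM except in the untreated WT replicate 1, which had 139 CPM.

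Of the 11 genes of the constitutive centromere network, 7 fell after recovery in ID3-KO and 6 in WT AID-DIvA cells, and 9 fell before recovery in each genotype of U2OS cells. CENPH and CENPT, which link the centromere to the outer kinetochore, fell in both genotypes before recovery and were called in neither after it. The Log2FC before recovery was -0.29 and -0.71 for CENPH and -0.34 and -0.32 for CENPT in ID3-KO and WT cells. Without the untreated WT replicate 1 the WT values were -0.56 for CENPH and -0.19 for CENPT. CENPI took the other course, with -0.98 and -0.58 after recovery. Without the recovered ID3-KO replicate 1 the former was -0.81. Before recovery CENPI was at -0.16 (called) and -0.12 (not called). Without the untreated WT replicate 1 the last was -0.23 and was called (adjusted p = 1.7e-05). CENPO had 116, 117 and 116 CPM in untreated and 86.8, 82.5 and 81.9 CPM in recovered ID3-KO cells. In WT AID-DIvA cells CENPO had 119, 121 and 124 CPM untreated and 93.2, 87.3 and 92.2 CPM after recovery. In ID3-KO U2OS cells it went from 105, 110 and 107 to 63.7, 64.5 and 66.4 CPM, and in WT cells from 77.3, 98.3 and 96.1 to 59.3, 63.6 and 61.4 CPM. None of these pairs of groups overlapped. CENPM fell more before recovery, from 65.5, 65.3 and 64.4 to 39.7, 33.0 and 35.4 CPM in ID3-KO U2OS cells (-0.85 ± 0.06, adjusted p = 6.2e-12) and from 77.1, 54.5 and 49.4 to 33.1, 30.2 and 31.7 CPM in WT cells (-0.92 ± 0.16, adjusted p = 0.0024, and -0.71 without replicate 1). After recovery CENPM had 39.3, 36.8 and 36.8 CPM against 51.7, 48.9 and 58.6 CPM untreated in ID3-KO AID-DIvA cells, and 33.9, 38.0 and 37.9 CPM against 46.4, 49.1 and 50.1 CPM in WT cells. Counts of CENPO, CENPP, CENPN and CENPT overlap genes on the other strand. With the counts of the annotated strand only, no Log2FC of these 4 genes moved by more than 0.14.

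Of the 9 genes of the outer kinetochore 6 fell after recovery in ID3-KO and 5 in WT cells, and 8 and 7 fell before recovery. NDC80 and NUF2, the subunits that touch the microtubule, fell in all 4 comparisons. NDC80 went from 218, 229 and 207 to 88.6, 118 and 116 CPM in ID3-KO AID-DIvA cells (-1.01 ± 0.11, adjusted p = 9.9e-05) and from 213, 217 and 219 to 140, 134 and 134 CPM in WT cells (-0.66 ± 0.04, adjusted p = 2.8e-08). Without the recovered ID3-KO replicate 1 the ID3-KO value was -0.87. Before recovery NDC80 fell by 0.62 and 0.60. SPC24, which together with SPC25 anchors the same complex to the inner kinetochore, differed in its course. SPC25 fell in all 4 comparisons.

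SPC24 (ENSG00000161888.7, GRCh37 chromosome 19, 11242196 to 11266484, minus strand) had 41.4, 42.3 and 41.4 CPM in untreated and 20.4, 20.5 and 21.5 CPM in treated ID3-KO U2OS cells. In WT U2OS cells it had 46.9, 38.9 and 37.2 CPM untreated and 19.3, 19.6 and 19.2 CPM treated. All treated U2OS libraries lay below all untreated ones, with a Log2FC of -1.0 ± 0.05 (adjusted p = 5.2e-14) and -1.07 ± 0.10 (adjusted p = 0.00011, and -0.97 without replicate 1). After recovery SPC24 had 43.1, 40.1 and 38.1 CPM against 45.3, 46.8 and 49.4 CPM untreated in ID3-KO AID-DIvA cells (-0.22 ± 0.07, adjusted p = 0.027, and -0.18, adjusted p = 0.07, without the untreated replicate 3). In WT cells it had 42.3, 46.4 and 47.6 CPM after recovery and 44.3, 45.6 and 46.7 CPM untreated, and these groups overlapped (Log2FC 0.00, adjusted p = 0.96). Set per kilobase of exon against NDC80, the SPC24 level was 0.276 ± 0.0241 in untreated and 0.488 ± 0.112 in recovered ID3-KO cells, and 0.267 ± 0.00324 and 0.423 ± 0.0365 in WT cells. In U2OS cells the same ratio went the other way, from 0.398 ± 0.00111 to 0.306 ± 0.0213 in ID3-KO and from 0.425 ± 0.0369 to 0.309 ± 0.022 in WT cells. The ratio of SPC25 to NDC80 moved less after recovery, from 0.661 ± 0.0179 to 0.691 ± 0.0561 in ID3-KO and from 0.612 ± 0.0256 to 0.663 ± 0.0245 in WT cells. Before recovery it went from 0.678 ± 0.0343 to 0.819 ± 0.0267 in ID3-KO and from 0.691 ± 0.0973 to 0.703 ± 0.0147 in WT cells.

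CASC5, which encodes the checkpoint scaffold KNL1 (ENSG00000137812.15, chromosome 15, 40886218 to 40956540), had 159, 161 and 148 CPM in untreated and 45.4, 68.7 and 78.1 CPM in recovered ID3-KO AID-DIvA cells. In WT cells it had 143, 141 and 152 CPM untreated and 78.5, 78.7 and 75.4 CPM after recovery. No groups overlapped, and the Log2FC was -1.27 ± 0.17 (adjusted p = 0.0003) and -0.90 ± 0.05 (adjusted p = 5e-09). Before recovery CASC5 went from 87.2, 84.1 and 84.2 to 61.4, 71.1 and 65.6 CPM in ID3-KO U2OS cells (-0.36 ± 0.05). In WT U2OS cells it had 57.2, 76.7 and 81.5 CPM untreated and 61.3, 56.6 and 55.4 CPM treated, groups that overlapped in the untreated replicate 1 (-0.30, adjusted p = 0.091, and -0.44, adjusted p = 5e-13, without it). DSN1 and MIS12 of the MIS12 complex fell before recovery (DSN1 -0.64 and -0.83, MIS12 -0.22 and -0.28) and were called in neither genotype after it, while NSL1 of that complex was called in none of the 4. ZWINT, which binds KNL1, had the highest level per kilobase of all 42 genes (91.8 CPM per kilobase over all libraries, against 0.997 for CENPP, the lowest). It had 242, 237 and 250 CPM untreated and 198, 187 and 191 CPM after recovery in ID3-KO cells (-0.34), and 234, 247 and 244 against 205, 216 and 216 CPM in WT cells (-0.18). In ID3-KO U2OS cells ZWINT had 251, 260 and 260 CPM untreated and 207, 188 and 192 CPM treated (-0.39), and in WT cells 239, 235 and 237 against 169, 163 and 174 CPM (-0.48).

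The 3 SKA genes, whose products hold kinetochores on shortening microtubules, fell after recovery in both genotypes, and SKA2 and SKA3 fell before it too. SKA2 (ENSG00000182628.8, chromosome 17, 57187312 to 57232630) had 77.0, 80.5 and 79.2 CPM in untreated and 41.6, 46.3 and 43.4 CPM in treated ID3-KO U2OS cells (-0.85 ± 0.05, adjusted p = 4e-13). In WT U2OS cells it had 84.2, 69.6 and 75.9 CPM untreated and 37.4, 37.9 and 38.6 CPM treated (-1.0 ± 0.09, adjusted p = 7.4e-05, and -0.93 without replicate 1). After recovery it had 58.4, 66.2 and 70.7 CPM against 125, 115 and 105 CPM in ID3-KO AID-DIvA cells, and 64.5, 60.4 and 54.6 CPM against 99.1, 102 and 104 CPM in WT cells. The Log2FC after recovery was -0.81 and -0.76, and no groups overlapped at either stage. SKA1 fell after recovery (-0.58 and -0.24) and was not called before it (0.08 and -0.12).

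Among the 6 spindle checkpoint genes 5 fell after recovery in each genotype, and 3 and 2 fell before it. BUB1, the kinase that docks the checkpoint proteins at kinetochores, had 233, 236 and 215 CPM in untreated and 108, 125 and 122 CPM in recovered ID3-KO AID-DIvA cells (-0.94 ± 0.08, adjusted p = 1.6e-05), and 306, 308 and 303 against 201, 189 and 195 CPM in WT cells (-0.64 ± 0.04, adjusted p = 3.2e-08). Before recovery BUB1 had 140, 144 and 139 CPM in treated and 145, 147 and 144 CPM in untreated ID3-KO U2OS cells, and 161, 157 and 171 against 151, 166 and 169 CPM in WT cells. The Log2FC there was -0.04 and 0.01 and was not called. TTK (-1.10 and -0.70) and MAD2L1 (-0.70 and -0.48) also fell after recovery. Without the recovered ID3-KO replicate 1 the ID3-KO values were -0.89 for TTK and -0.53 for MAD2L1. Before recovery TTK was at -0.14 (adjusted p = 0.035, with groups that overlapped) and -0.20, and MAD2L1 at -0.02 and -0.14. Without the untreated WT replicate 1 the WT values were -0.21 for TTK (adjusted p = 0.00058) and -0.09 for MAD2L1 (adjusted p = 0.048).

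MAD1L1, which carries MAD2L1 to unattached kinetochores, was the 1 gene of the 42 that rose after recovery, and it was called in WT cells only. In WT AID-DIvA cells it had 111, 112 and 113 CPM untreated and 130, 144 and 140 CPM after recovery, groups that did not overlap (0.31 ± 0.05, adjusted p = 0.00011). In ID3-KO cells it had 161, 146 and 182 CPM untreated and 206, 173 and 176 CPM after recovery, and these groups overlapped (0.18 ± 0.09, adjusted p = 0.14, and 0.27, adjusted p = 0.027, without the untreated replicate 3). In U2OS cells MAD1L1 had 191, 179 and 181 CPM untreated against 189, 157 and 166 CPM treated in ID3-KO cells, and 173, 123 and 124 against 122, 123 and 118 CPM in WT cells, and neither was called.

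Of the RZZ complex, which recruits dynein and MAD1L1 to kinetochores, ZW10 and ZWILCH fell after recovery in both genotypes and KNTC1 was not called. KNTC1 had 77.6, 105 and 115 CPM after recovery and 122, 126 and 117 CPM untreated in ID3-KO AID-DIvA cells, and 108, 107 and 108 against 104, 106 and 117 CPM in WT cells. Before recovery it went from 102, 97.2 and 99.3 to 54.0, 63.1 and 58.9 CPM in ID3-KO U2OS cells (-0.76 ± 0.05, adjusted p = 7.9e-12) and from 63.9, 91.6 and 92.9 to 54.2, 50.3 and 52.0 CPM in WT cells (-0.65 ± 0.14, adjusted p = 0.0059). Without the untreated WT replicate 1 the WT value was -0.81. All treated U2OS libraries were below the untreated ones. ZWILCH moved the other way before recovery in ID3-KO cells, where it rose (0.18 ± 0.05, adjusted p = 0.0013), against -0.69 and -0.34 after it. Without the recovered ID3-KO replicate 1 the ID3-KO value after recovery was -0.52. The ZWILCH counts on the annotated strand were 1.225 times those used here, and with them no Log2FC of the gene moved by more than 0.09.

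The corona genes CENPE, a motor that carries chromosomes to the spindle equator, and CENPF were among those that fell most after recovery. CENPE (ENSG00000138778.7, chromosome 4, 104026963 to 104119566, minus strand) had 182, 183 and 160 CPM in untreated and 49.3, 76.1 and 85.9 CPM in recovered ID3-KO AID-DIvA cells. In WT cells it had 180, 173 and 182 CPM untreated and 102, 102 and 91.9 CPM after recovery. The recovered libraries were all below the untreated ones and replicate 1 was the lowest of the ID3-KO cells (-1.30 ± 0.18, adjusted p = 0.00034, and -0.85 ± 0.05, adjusted p = 1.8e-08). Before recovery CENPE went up, from 80.9, 84.3 and 81.4 to 111, 124 and 111 CPM in ID3-KO U2OS cells, without overlap (0.49 ± 0.05, adjusted p = 4.7e-09). In WT U2OS cells it had 62.1, 82.9 and 93.0 CPM untreated and 94.9, 92.0 and 90.8 CPM treated, groups that overlapped (0.23 ± 0.14, adjusted p = 0.2, and 0.08 ± 0.04, adjusted p = 0.067, without the untreated replicate 1). CENPF, a large coiled-coil protein, had 593, 617 and 549 CPM in untreated and 248, 278 and 276 CPM in recovered ID3-KO cells, and 668, 643 and 643 against 337, 340 and 357 CPM in WT cells. Before recovery it went from 433, 434 and 440 to 287, 338 and 322 CPM in ID3-KO U2OS cells, and in WT cells from 309, 463 and 483 to 311, 318 and 301 CPM. The untreated WT replicate 1 was at the level of the treated libraries, and without it the Log2FC of CENPF in WT cells was -0.60, against -0.42 (adjusted p = 0.057) with it.

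The shugoshins guard the cohesion of sister centromeres until anaphase. SGOL2 (ENSG00000163535.13, chromosome 2, 201374731 to 201448505) had 115, 105 and 92.4 CPM in untreated and 23.3, 38.4 and 46.9 CPM in recovered ID3-KO AID-DIvA cells. In WT cells it had 104, 100.0 and 108 CPM untreated and 51.6, 52.9 and 44.8 CPM after recovery. With no overlap in either genotype, this was the largest decrease of the 42 genes in both, 2.86-fold in ID3-KO (-1.51 ± 0.21, adjusted p = 0.00042) and 2.08-fold in WT cells (-1.06 ± 0.06, adjusted p = 1.6e-08). Before recovery SGOL2 rose in ID3-KO U2OS cells, from 41.6, 41.8 and 39.1 to 46.5, 49.9 and 43.5 CPM (0.20 ± 0.05, adjusted p = 0.0024). In WT U2OS cells it had 37, 37.6 and 40.9 CPM untreated and 39.8, 39.7 and 39.1 CPM treated, groups that overlapped. SGOL1 fell in all 4 comparisons (-0.84, -0.58, -0.15 and -0.42 in the order ID3-KO and WT after recovery, then ID3-KO and WT before it). Its counts on the annotated strand were 1.447 times those used here, and with them no Log2FC of SGOL1 moved by more than 0.11.

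The chromosomal passenger genes, which serve Aurora B in correcting wrong attachments, all fell in all 4 comparisons. CDCA8 (borealin) went from 194, 202 and 191 to 100.0, 98.2 and 91.9 CPM in ID3-KO AID-DIvA cells (-1.02 ± 0.06, adjusted p = 1.2e-06) and from 213, 219 and 214 to 118, 123 and 121 CPM in WT cells (-0.82 ± 0.04, adjusted p = 3.7e-09). Before recovery it fell by 0.52 and 0.59. INCENP, the scaffold of the complex, had 189, 188 and 210 CPM untreated and 155, 138 and 131 CPM after recovery in ID3-KO cells, and 206, 210 and 211 against 148, 160 and 163 CPM in WT cells. In U2OS cells INCENP had 153, 148 and 154 CPM untreated and 110, 103 and 108 CPM treated in ID3-KO cells, and 124, 156 and 158 against 106, 109 and 105 CPM in WT cells. No groups overlapped. BIRC5 (survivin) fell by 0.86 and 0.65 after and by 0.49 and 0.61 before recovery. Without the untreated WT U2OS replicate 1 its WT value before recovery was -0.44. Its counts on the annotated strand were 2.55 times those used here, and its Log2FC moved by up to 0.15 with them. CENPJ, outside the kinetochore, had 34.5, 36.5 and 31.2 CPM after recovery and 37.5, 39.4 and 34.4 CPM untreated in ID3-KO cells, and 38.2, 34.2 and 35.3 against 38.9, 36.3 and 37.9 CPM in WT cells, with overlap in both. Its U2OS values ran from 26.9 to 37 CPM.

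**Figure D2:**
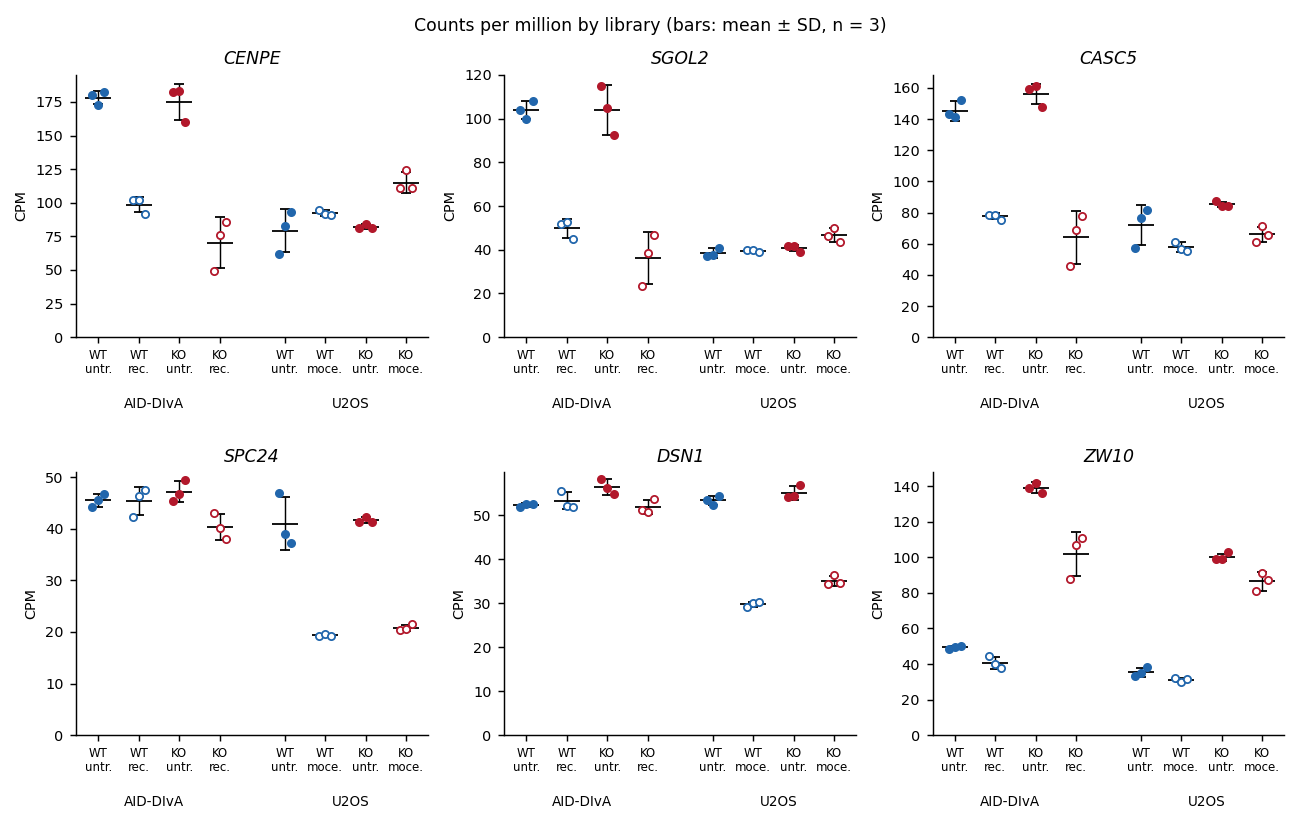
CPM in each of the 24 libraries for selected genes (points are libraries, bars the mean ± SD of 3), with untreated and treated groups of each genotype and cell line side by side. SGOL2 and CENPE drop in both genotypes of AID-DIvA cells and do not drop in U2OS cells, SPC24 drops in U2OS cells, and ZW10 is higher in every ID3-KO group than in its WT counterpart. Untreated levels of SGOL2 and CENPE are higher in AID-DIvA than in U2OS cells.

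The difference between the response after recovery and the response before it was tested directly in each genotype over 12 libraries. Since stage and cell line coincide, it is a difference between the pair of experiments and not of recovery alone. In ID3-KO cells 21 of the 42 genes were lower after recovery relative to before and 6 were higher, against 27.7% and 24.8% of all genes. In WT cells 11 were lower and 11 higher, against 21.7% and 20.5%. With library totals in place of TMM factors the split was 26 and 2 in ID3-KO (32% and 20.8% of all genes) and 13 and 7 in WT cells (25.2% and 16.5%), a setting that also moved the median of all genes to -0.14 and -0.11. In both genotypes 11 genes were lower: CENPI, NUF2, CASC5, BUB1, MAD2L1, TTK, ZWILCH, CENPE, CENPF, SGOL2 and CDCA8. In both genotypes 4 genes were higher: CENPM, SPC24, DSN1 and KNTC1. The share of all genes called in the same direction in both genotypes is not given here. CENPE showed the largest difference in ID3-KO cells (-1.81 ± 0.21 in ID3-KO, adjusted p = 1.7e-05, against -1.09 ± 0.15 in WT cells, adjusted p = 6.1e-05). Without the recovered ID3-KO replicate 1 the value in ID3-KO cells was -1.6. Without the untreated WT U2OS replicate 1 that in WT cells was -0.94. SPC24 had the largest difference of the opposite sign (0.77 ± 0.09 and 1.07 ± 0.12). The untreated lines also differed in level. In untreated ID3-KO cells CENPE had a mean of 175 CPM in AID-DIvA and 82.2 CPM in U2OS cells, and SGOL2 104 and 40.8 CPM. In untreated WT cells the means were 178 and 79.3 CPM for CENPE and 104 and 38.5 CPM for SGOL2. SPC24 lay closer, with 47.2 and 41.7 CPM in ID3-KO and 45.5 and 41.0 CPM in WT cells. The part of these starting levels was not tested. No gene was called in opposite directions in the 2 genotypes, and 8 were called in neither.

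**Figure D3:**
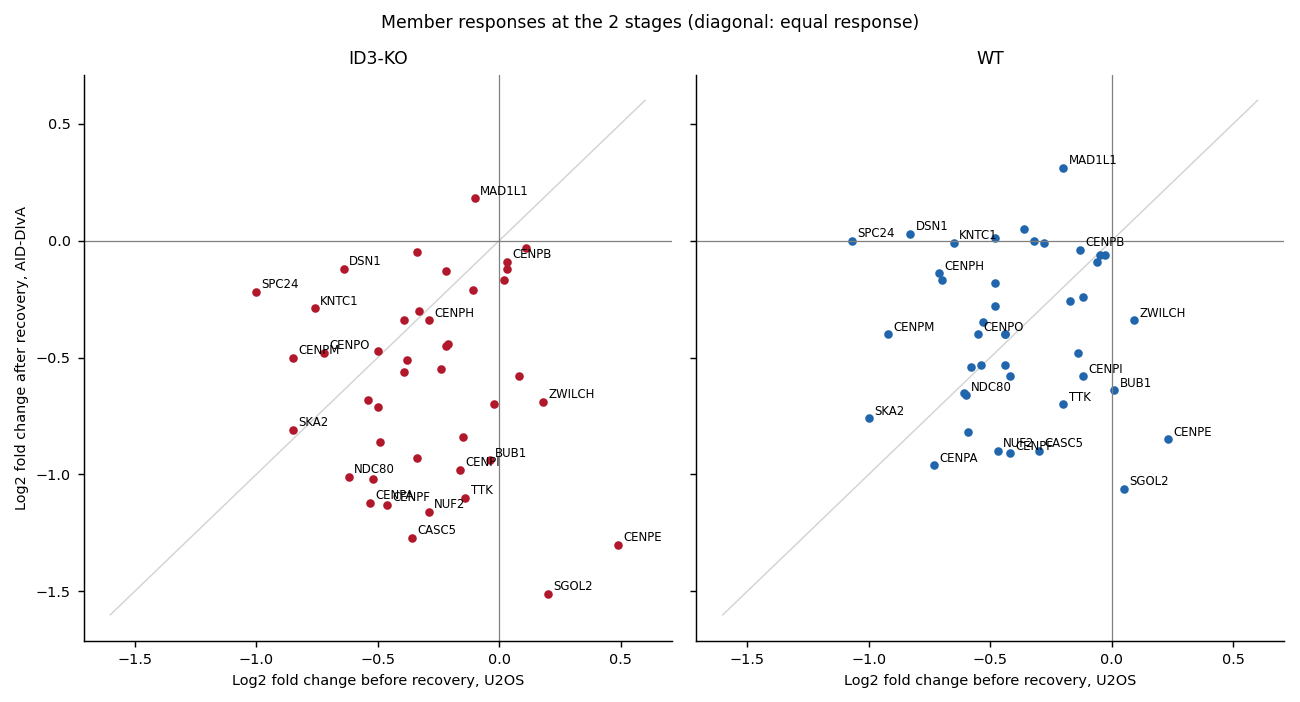
Log2 fold change after recovery in AID-DIvA cells (vertical) against that before recovery in U2OS cells (horizontal), 1 point a gene, for ID3-KO and WT cells, with the diagonal marking an equal response. SGOL2, CENPE and CASC5 lie below the diagonal and SPC24 above it in both panels.

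The question of the design was whether ID3-KO cells respond to the drug differently from WT cells. After recovery the difference in response between genotypes was called for none of the 42 genes by edgeR (0.451% of all genes were called lower and 0.762% higher). At an unadjusted p below 0.05, 14 were lower in ID3-KO cells and none higher, against 5.21% and 6.57% of all genes. DESeq2 called SKA1 (-0.32, adjusted p = 0.018). Without a filter on low counts edgeR called 8 genes, of which CENPE (-0.43, adjusted p = 0.0008) and SGOL2 (-0.43, adjusted p = 0.0027) had the smallest adjusted p. The share of all genes called in either fit is not given here, so these calls are a description only. The values were below 0 for 41 of the 42 genes, with a median of -0.20, against 53.6% of all genes and a median of -0.02. Genes that are transcribed together are not independent, so this count is a description. The recovered ID3-KO replicate 1, the smallest library, lay below the other two for SGOL2, CENPE and CASC5. Without it the median was -0.12 and 39 of 42 values were below 0, the Log2FC after recovery in ID3-KO cells was -1.27 for SGOL2, -1.09 for CENPE and -1.07 for CASC5, and 31 genes still fell. For CENPE the difference between genotypes was -0.45 ± 0.22 (adjusted p = 0.46) with that library and -0.24 ± 0.09 (adjusted p = 0.24) without it. For SGOL2 it was -0.45 ± 0.27 and -0.21 ± 0.12, and for CASC5 -0.37 ± 0.21 and -0.17 ± 0.08.

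Before recovery the difference leaned the other way. None of the 42 genes was called by edgeR (1.06% of all genes were called lower and 1.1% higher) and none by DESeq2. At an unadjusted p below 0.05, 7 were higher in ID3-KO cells and none lower, against 7.2% and 6.04% of all genes. The median was 0.09, and 31 of 42 values were above 0, against a median of 0.01 over all genes, of which 48.8% were below 0. Without the untreated WT replicate 1, which stood apart, 5 genes were called higher in ID3-KO cells (4.46% of all genes were): CENPE (0.41 ± 0.07, adjusted p = 5.1e-05), CENPH (0.26 ± 0.07, adjusted p = 0.015), CENPK (0.30 ± 0.09, adjusted p = 0.023), SKA3 (0.22 ± 0.07, adjusted p = 0.044) and CENPQ (0.33 ± 0.11, adjusted p = 0.05, below the threshold before rounding). Without the untreated WT replicate 2 CENPH alone was called. These calls therefore depend on which libraries are kept.

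**Figure D4:**
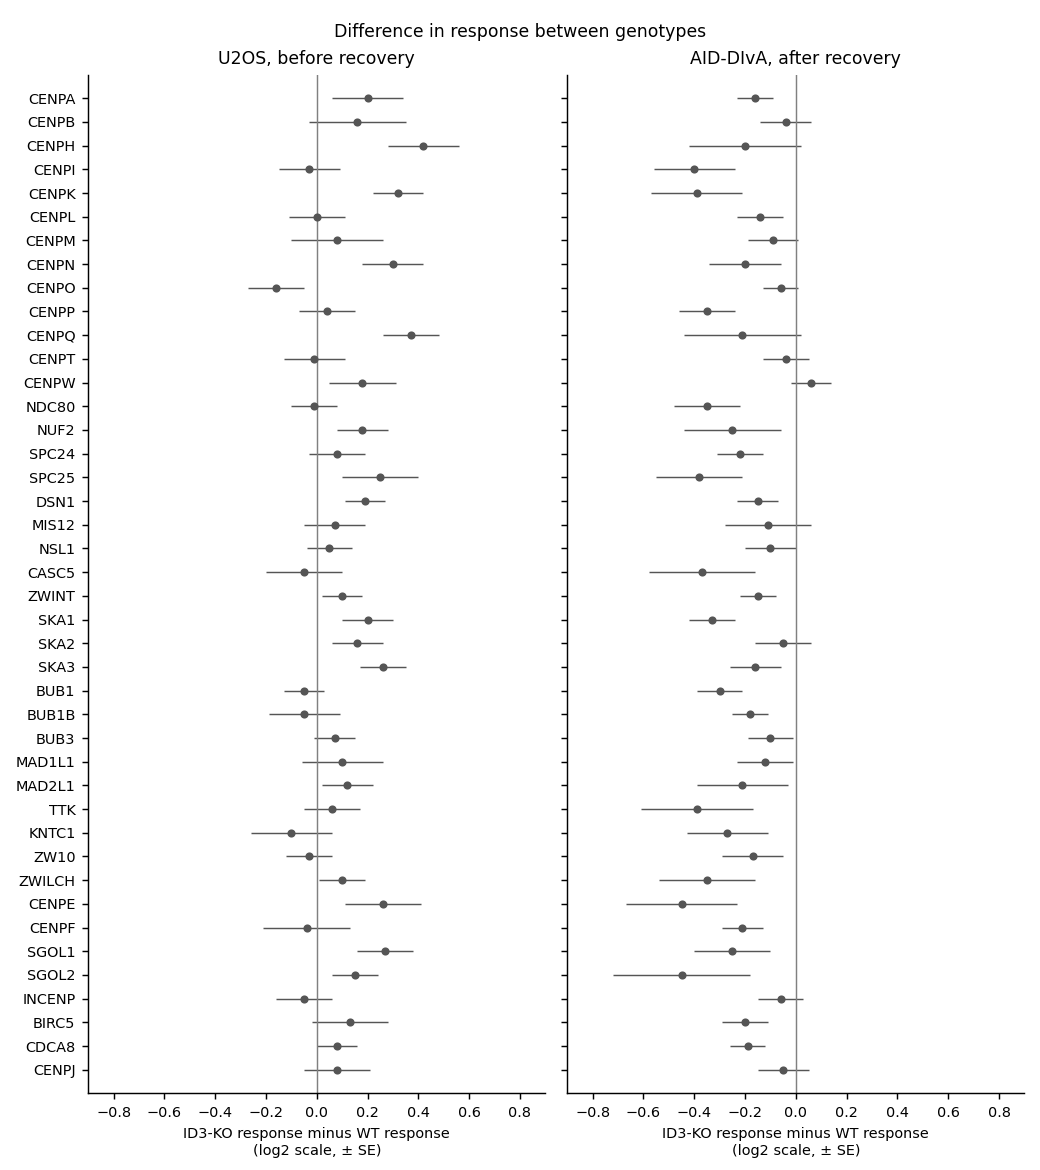
Difference in response between genotypes (ID3-KO minus WT, log2 scale, ± SE) for each of the 42 genes, after recovery in AID-DIvA cells and before recovery in U2OS cells. After recovery 41 of 42 points lie below 0 and before recovery 31 of 42 lie above it, and none of them was called.

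Untreated ID3-KO and WT cells differed in 13 of the 42 genes in AID-DIvA cells, 8 lower and 5 higher, against 18.1% and 18.6% of all genes. Apart from ZW10, MAD1L1 and BUB1 these differences were small, between -0.23 (CENPA, BIRC5) and 0.26 (SGOL1). Without the untreated ID3-KO replicate 3, 11 genes were lower and 13 higher (23% and 21.4% of all genes). In U2OS cells ZW10 alone differed, against 8.63% of all genes lower and 6.56% higher. Without the untreated WT replicate 1, 4 genes were lower and 16 higher (20.6% and 20.5% of all genes).

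ZW10 (ENSG00000086827.4, chromosome 11, 113603909 to 113644533, minus strand), a subunit of the RZZ complex, stood out. It had 139, 142 and 136 CPM in untreated ID3-KO and 48.3, 49.4 and 50.1 CPM in untreated WT AID-DIvA cells, a 2.77-fold difference (1.47 ± 0.04, adjusted p = 9.4e-13). In U2OS cells it had 99.3, 98.8 and 103 CPM in ID3-KO and 33.2, 34.7 and 38.2 CPM in WT cells, a 2.83-fold difference (1.5 ± 0.08, adjusted p = 4.7e-05). After recovery it had 87.6, 107 and 111 CPM in ID3-KO and 44.5, 40.1 and 37.8 CPM in WT AID-DIvA cells, and treated U2OS cells had 80.9, 91.3 and 87.4 CPM in ID3-KO and 31.9, 29.9 and 31.8 CPM in WT cells. Every ID3-KO library was above every WT library of the same line.

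The genes next to ZW10 differed in the same direction. Of 25 neighbours within 2 Mb with a mean of at least 1 CPM, 25 were higher in untreated ID3-KO AID-DIvA cells (median Log2FC 1.17) and 21 in U2OS cells (median 1.0). A profile along the chromosome, with limits set by hand, was drawn up after the neighbours had been seen. The start of ZW10 is here its lower coordinate, the 3′ end of this minus-strand gene. The medians were 1.2 and 1.01 from 2 Mb before to 1.5 Mb after this start, and 1.34 and 1.18 from 10 to 2 Mb before it. From 20 to 10 Mb before it the medians were 0.67 and 0.60, and from 43 to 20 Mb before it 0.37 and 0.36. Further before they were 0.00 and -0.04, and beyond 1.5 Mb after it -0.01 and 0.03. The cause of the shared difference was not tested. Around the other 2 genes with larger differences the neighbours moved less evenly. MAD1L1 had 161, 146 and 182 CPM in untreated ID3-KO and 111, 112 and 113 CPM in WT AID-DIvA cells (0.51 ± 0.07, adjusted p = 2.7e-05), and 19 of its 38 neighbours were higher and 9 lower. In U2OS cells its difference was 0.39 ± 0.14 (adjusted p = 0.1), and 0.57 ± 0.04 (adjusted p = 2.6e-16) without the untreated WT replicate 1. BUB1 had 233, 236 and 215 CPM in ID3-KO and 306, 308 and 303 CPM in WT AID-DIvA cells (-0.45 ± 0.04, adjusted p = 5.5e-07), and 14 of its 21 neighbours were lower and 1 higher. CENPO had the third smallest adjusted p in untreated U2OS cells (0.24 ± 0.10, adjusted p = 0.17, and 0.14 ± 0.04, adjusted p = 0.0024, without the untreated WT replicate 1), with 105, 110 and 107 CPM in ID3-KO and 77.3, 98.3 and 96.1 CPM in WT cells.

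**Figure D5:**
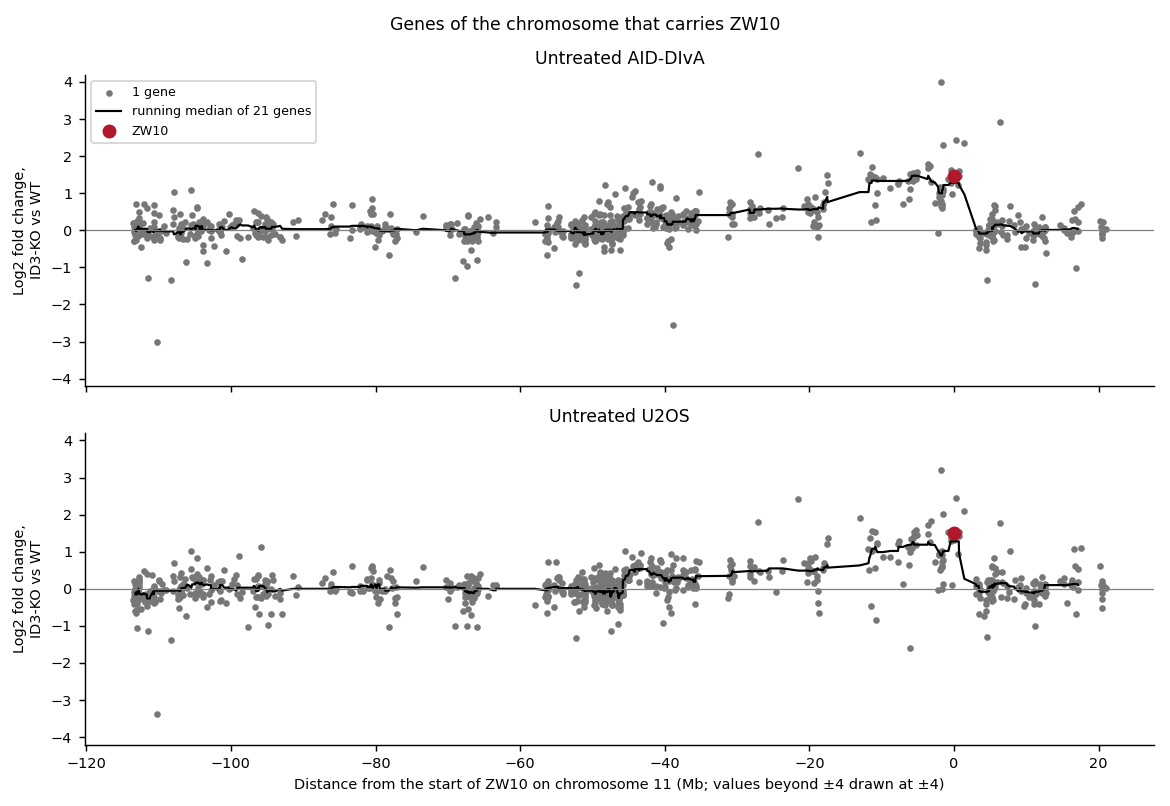
Log2 fold change of untreated ID3-KO against WT cells for the genes of chromosome 11, by distance in Mb from the start of ZW10 (large point), with a running median of 21 genes, in AID-DIvA and U2OS cells. Medians over stretches with limits set by hand are above 0 from 43 Mb before to 1.5 Mb after the start of ZW10, in both lines. They are highest from 10 to 2 Mb before it (1.34 and 1.18), lower around it (1.2 and 1.01) and near 0 beyond 1.5 Mb after it.

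Other genes of the pathway, listed by name, were set beside the 42. Among all genes 19.9% fell and 20.2% rose after recovery in ID3-KO and 23% and 23.9% in WT cells, and before recovery 34% and 35.8% in ID3-KO and 22.9% and 26% in WT cells. Of 19 genes of centromere loading, passenger kinases and checkpoint silencing, 13 fell and none rose after recovery in ID3-KO cells, and 16 fell and 1 rose in WT cells. Before recovery 14 fell and 2 rose in ID3-KO, and 12 fell in WT cells. PLK1, the mitotic kinase, fell in all 4 comparisons (-1.03 and -0.76 after, -0.69 and -0.59 before recovery). CDC20, the activator that the checkpoint holds back, fell after recovery (-0.80 and -0.69) and was at 0.01 and 0.06 before it. PMF1, a MIS12 complex subunit, fell by 1.32 and 1.46 before recovery and by 0.24 and 0.29 after it. Of 17 genes of the anaphase-promoting complex and separase, 6 fell after recovery in ID3-KO and 8 in WT cells, with 1 rise each, and 14 and 12 fell before it. Replication licensing genes, which act from G1 to S phase, ran the other way after recovery. Of 16 such genes 8 rose and 1 fell in ID3-KO, and 12 rose and 2 fell in WT cells, whereas before recovery 14 fell and none rose in each genotype. Their summed level went from 2860 ± 55.6 to 3370 ± 43.9 CPM in ID3-KO and from 2760 ± 47.8 to 3230 ± 11.4 CPM in WT AID-DIvA cells. In U2OS cells it went from 3210 ± 20.2 to 1960 ± 27.3 CPM and from 2920 ± 57.8 to 1670 ± 11.6 CPM. All 3 libraries of each recovered group lay above the untreated ones, and all 3 treated U2OS libraries below.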

How the data were processed

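The authors prepared stranded total RNA libraries, read them in pairs, aligned the reads with STAR to hg19 (GRCh37) and counted with featureCounts, per the methods and processing notes (versions are not given in the sources used here). They deposited raw counts per gene for each library, without normalization. The counts from either strand were used, and those of the annotated strand were an alternative. Gene coordinates are those of the deposited files.

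Counts were tested in R 4.3.3 with edgeR 4.0.16 (TMM, filterByExpr, robust quasi-likelihood fit, Benjamini-Hochberg adjustment over all genes tested), where the study's methods used DESeq2, run here (1.42.0) as an alternative. Each 2-group comparison used its own 6 libraries and each difference of responses 12. The threshold for a call was an adjusted p of 0.05. Standard errors are the log2 fold change over the square root of F. Counts per library ran from 37878751 to 76906266. Between replicates the chi-square per gene was at least 2.791, more than counting error alone gives. For genes with few reads, such as CENPP (294 to 809 counts per library), counting error also limits precision. P-values measure the spread between replicate cultures of 1 line per genotype.

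Members and lists were chosen with earlier results of these data known. Genes shown in every library were the 3 largest decreases in ID3-KO cells at each stage, those that rose after recovery, the 3 smallest adjusted p of each untreated comparison and the highest mean CPM of each role. The fits were tested on simulated counts with large changes in 200 genes and no outlying library. That test does not bear on small differences between genotypes. Alternatives were size factors, library totals, no filter, all libraries of a stage, a replicate block and each library left out in turn.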

Additional observations from a re-analysis of the deposited data

Results flagged for a closer look

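The response of several genes differed between the recovery stage of AID-DIvA cells and the unrecovered stage of U2OS cells, by the edgeR test of the difference itself (adjusted p below 0.05). This was so for 27 of the 42 genes in ID3-KO cells, where 27.7% of all genes were called lower and 24.8% higher, and for 22 in WT cells, where 21.7% and 20.5% were. Each of the counts 27 and 22 takes both directions together, and calls were common among all genes too. The counts alone therefore do not set the 42 genes apart. SPC24 differed by 0.77 on the log2 scale in ID3-KO and by 1.07 in WT cells, with the larger decrease before recovery. CENPE differed by -1.81 and -1.09 and SGOL2 by -1.72 and -1.11 in ID3-KO and WT cells, and both fell after recovery and were not lower before it. Without the recovered ID3-KO replicate 1 the ID3-KO values were -1.6 for CENPE and -1.48 for SGOL2. Without the untreated WT U2OS replicate 1 the WT values were -0.94 for CENPE, -1.09 for SGOL2 and 0.96 for SPC24. Stage and cell line cannot be told apart in any of these values. Untreated levels of CENPE and SGOL2 were higher in AID-DIvA than in U2OS cells, and the part of this was not tested.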

How the results depend on the processing

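The count of genes called kept within 1.5 times of the reported value in most alternatives. Of 183 called values of single genes, recomputed under the alternatives 2624 times, 2457 kept their call, 167 no longer passed the threshold and 0 changed sign. A Log2FC beyond 1 in addition left 9 genes in ID3-KO and 1 in WT cells after recovery, 0 in ID3-KO and 2 in WT U2OS cells before it, 2 and 3 for the difference between stages in ID3-KO and WT cells, and 1 in each comparison of untreated cells. Of all genes 2.56% and 2.52% fell this far after recovery and 5.77% and 5.06% before it, in ID3-KO and WT cells. For the stages and the untreated cells the share of all genes is not given here. For the difference between genotypes after recovery DESeq2 called 1 gene and the fit without a filter 8, and before recovery the latter called 1. The share of all genes called under either setting is not given here. In untreated cells a fit over all 12 libraries of a stage called 7 genes in AID-DIvA (13 reported) and 3 in U2OS cells (1 reported), and the fit without a filter 2 in U2OS cells. For these fits too the share of all genes is not given here. Leaving out 1 library at a time gave 28 to 32 and 29 to 31 genes after recovery (ID3-KO, WT), 31 to 33 and 22 to 34 before it, 22 to 29 and 18 to 28 for the difference between stages, 9 to 24 and 1 to 20 in untreated AID-DIvA and U2OS cells, and 0 to 0 and 0 to 5 for the difference between genotypes after and before recovery. In the same fits 28.2% to 40.9% and 38.6% to 52.5% of all genes were called after recovery. Before it 65% to 68.4% and 35.9% to 66.4% were. For the difference between stages the shares were 47.4% to 52.7% and 35.3% to 52%. In untreated AID-DIvA and U2OS cells they were 28% to 44.4% and 6.02% to 41.1%. For the difference between genotypes they were 0.562% to 1.37% and 1.1% to 9.03%. The count of 24 came without the untreated ID3-KO AID-DIvA replicate 3, and those of 20 and 5 without the untreated WT U2OS replicate 1. The cause was not tested.

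Replicate numbers did not pair the samples: deviations of same-numbered samples correlated at -0.412 to 0.296, and 4 of 24 correlations were over 0.1. With the replicate number as a block 30, 29, 34 and 25 genes were called in the 4 treatment comparisons, 28 and 20 for the difference between stages, 9 and 1 in untreated AID-DIvA and U2OS cells and 0 for both differences between genotypes. The share of all genes called with this block is not given here, so these counts are a description only. A sample correlated best with its own number in 18 of 48 cases. The fit without the untreated WT U2OS replicate 1 is 1 of those that left out a library in turn, and giving its values gene by gene was chosen after seeing the data. The counts of role groups with DESeq2 size factors were added after seeing the data and changed no count by more than 1.5 times.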
